A study of Mus musculus with 32 samples.

Results

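The Toll-like receptors are the membrane proteins with which innate immune cells, and B cells, sense microbial products, and the genes described here are Tlr1 to Tlr9 and Ly96, which encodes MD-2, the partner without which Tlr4 does not bind lipopolysaccharide. Each gene was found by its exact symbol in the array's annotation, and 9 of the 10 genes had a probeset, each of them a single one, among 19938 genes on the array. Tlr5, the flagellin receptor, had no probeset that names it alone and was not analysed here. On build GRCm38.p6 (RefSeq), Tlr1 (chr5:64924680-64933600) and Tlr6 (chr5:64953092-64970942) lie side by side, as do Tlr8 (chrX:167241123-167264329) and Tlr7 (chrX:167303380-167330574). Tlr2 lies at chr3:83836272-83841824, Tlr3 at chr8:45395665-45411075, Tlr4 at chr4:66827551-66846581, Tlr9 at chr9:106222598-106226876 and Ly96 at chr1:16688456-16709605. Each value is a whole-gene summary of a probeset and resolves no exon or transcript.

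The values are from 32 microarrays (Affymetrix mouse gene arrays) of mouse bone marrow cells in 7 groups, made for a study of how innate immune signaling through Myd88 bears on leukemia in mice that lack 1 allele of Pax5. The leukemia experiment held leukemic bone marrow of 6 Pax5+/- mice and of 6 Pax5+/-;Myd88+/- mice, with 4 samples of sorted B220low IgM- proB and preB cells of healthy wild-type (WT) mice as controls. The proB experiment held 4 samples of each of 4 genotypes (Pax5+/-;Myd88-/-, Pax5+/-;Myd88+/-, Pax5+/- and WT), labelled as B220+ marrow cells taken from healthy mice by magnetic sorting. According to the methods such cells came from mice of 2 to 3 weeks of age and were grown with 5 ng/ml IL7 on ST2 stromal feeder cells. The culture of Pax5+/-;Myd88-/- cells is not described there. The mice were of mixed C57BL/6 and CBA background. By the labels of every sample, they lived free of specific pathogens until 2 months of age and then met common pathogens in a conventional facility, which the age of 2 to 3 weeks in the methods would precede for the cultured cells. The Pax5 and Myd88 losses are germline and so carried in every cell of the animal. The leukemic samples are whole bone marrow by their label and were not sorted.

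Toll-like receptors fall into those of the cell surface and those of the endosome. At the surface, Tlr2 pairs with Tlr1 or Tlr6 to sense bacterial lipoproteins and Tlr4 with MD-2 senses lipopolysaccharide, while in the endosome Tlr3 senses double-stranded RNA, Tlr7 and Tlr8 single-stranded RNA, and Tlr9 DNA with unmethylated CpG. Every one of them but Tlr3 signals through the adaptor Myd88, and in the B lineage Tlr9, Tlr7 and the Tlr4-like receptor Cd180 are among the receptors known for driving responses.

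For 7 of the 10 genes a promoter sequence was at hand (RefSeq, build GRCm38.p6), and those of Tlr9 and Tlr2 are printed as a nucleic acid receptor and a lipoprotein receptor that were above background in all 7 groups. Tlr6, detected as widely, has 2 annotated starts and is not shown. They are the 250 bases before an annotated start, on the gene's strand, at chr9:106222348-106222597 for Tlr9 (plus strand) and chr3:83841609-83841858 for Tlr2 (minus strand). The start used for Tlr2 lies inside the gene's span, which ends at 83841824, so most of that stretch is within the span. Capitals mark matches, on either strand, to the letters GAGGAAG (an ETS motif of the PU.1 type) or to GGG, any 5 bases and then CC (an NF-kB motif).
Tlr9: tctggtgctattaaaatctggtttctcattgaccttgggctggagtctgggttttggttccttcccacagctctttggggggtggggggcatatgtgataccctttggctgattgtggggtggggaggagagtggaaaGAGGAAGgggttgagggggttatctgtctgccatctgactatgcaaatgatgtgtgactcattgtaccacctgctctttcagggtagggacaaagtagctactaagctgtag
Tlr2: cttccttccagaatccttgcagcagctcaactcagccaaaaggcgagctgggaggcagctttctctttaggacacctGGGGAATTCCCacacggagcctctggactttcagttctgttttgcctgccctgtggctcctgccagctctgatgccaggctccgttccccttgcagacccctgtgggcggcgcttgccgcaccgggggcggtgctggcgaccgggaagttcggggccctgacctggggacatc
The Tlr9 stretch held 1 match to GAGGAAG, which 10.61% of 32851 promoters of the same length hold, and no match to the NF-kB motif or to GAAA, any 2 bases and then GAAA (an IRF motif, in 2.98% of promoters). The Tlr2 stretch held 3 overlapping matches to the NF-kB motif, which is present in 45.8% of promoters, and neither of the other motifs.

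The libraries followed their labels in Myd88, and Pax5 was lower in Pax5+/- than in WT cultures (-0.57 on the log2 scale, adjusted p = 0.00203). Against sorted WT cells Pax5 did not pass limma's test in Pax5+/- (-0.92, adjusted p = 0.392) or Pax5+/-;Myd88+/- leukemia (-1.125, adjusted p = 0.287). It ran from 7.69 to 12.29 and from 9.07 to 11.95 in these leukemias, beside 11.81 to 12.05 in the sorted cells. Myd88 was at 9.21 to 10.38 on the log2 scale in the 18 arrays with both alleles, at 8.26 to 9.39 in the 10 with 1 allele and at 7.04 to 7.44 in the 4 with none. All 4 of the latter still exceeded the background level defined below, so exceeding it does not by itself show an intact gene. Markers of B-cell precursors (13 measured genes) averaged 11.1 to 11.9 in all cultures and sorted samples and 8.30 to 11.5 in the leukemias, with the lowest values in replicates 2 and 4 of each genotype (8.30 and 8.52 in Pax5+/-, 9.54 and 9.35 in Pax5+/-;Myd88+/-). Granulocyte markers averaged 9.54 and 9.47 in sorted WT replicates 1 and 2 and 6.98 and 6.91 in replicates 3 and 4, so the sorted samples were of 2 kinds, and 6.41 to 11.6 in the leukemias. Xist, expressed from the inactive X of female cells, was at 12.23 or more in all sorted WT, Pax5+/-;Myd88+/- and Pax5+/-;Myd88-/- culture samples and at 6.11 or less in all WT and Pax5+/- cultures, with the Y-linked Kdm5d, Uty and Eif2s3y seen in the latter, so sex and loss of Myd88 cannot be told apart in the cultures, and the sorted WT samples and WT cultures also differ in it. In such bulk samples fewer cells of a type and less RNA per cell cannot be told apart. All values are RMA values on the log2 scale, so a difference of 1 is 2-fold, and a gene was taken as above background in a group when each of its arrays exceeded the 95th percentile of 1210 olfactory and vomeronasal receptor probesets of the same array (6.04 to 6.38). Levels are compared between samples of a gene and never between genes, whose probes differ. Samples are labelled biological replicates with no animal or culture named, and p-values measure the spread between these samples, which may in part be technical. Replicates correlated at r = 0.9666 to 0.9982. The closest were WT cultures 1 and 3 (0.9982), Pax5+/-;Myd88-/- cultures 2 and 4 (0.998) and WT cultures 2 and 4 (0.9979).

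Of the 9 genes with a probeset, 6 were above background in at least 1 group: Tlr2, Tlr4, Tlr6, Tlr7, Tlr9 and Ly96. Tlr2, Tlr6 and Tlr9 were above it in all 7 groups. Tlr4 missed the level in 1 of 4 sorted WT arrays, Ly96 in 1 of 6 Pax5+/-;Myd88+/- leukemias and Tlr7 in all 4 Pax5+/- cultures and in 1 of the 4 Pax5+/-;Myd88-/- cultures, so that 5 or 6 genes were detected in any group. On an average array of a group 62.7% to 64.4% of all probesets exceeded the level, a looser count that does not ask it of every array. With the 99th percentile as the level Tlr6 dropped out and 5 genes were left. Tlr1, Tlr3 and Tlr8 were not above it in all arrays of any group. They still exceeded it in single leukemias: Tlr1 in 5 of 6 Pax5+/- and 4 of 6 Pax5+/-;Myd88+/- samples, Tlr8 in 5 of 6 and 2 of 6, and Tlr3 in 1 of 6 and 0 of 6. None of these 3 genes exceeded it in a culture or a sorted WT sample. Across the 7 groups, all 9 genes differed by limma's F test over all arrays, at adjusted p values from 1.82e-14 for Tlr7 to 1.86e-05 for Tlr8, where 70.7% of all probesets did.

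**Figure D1:**
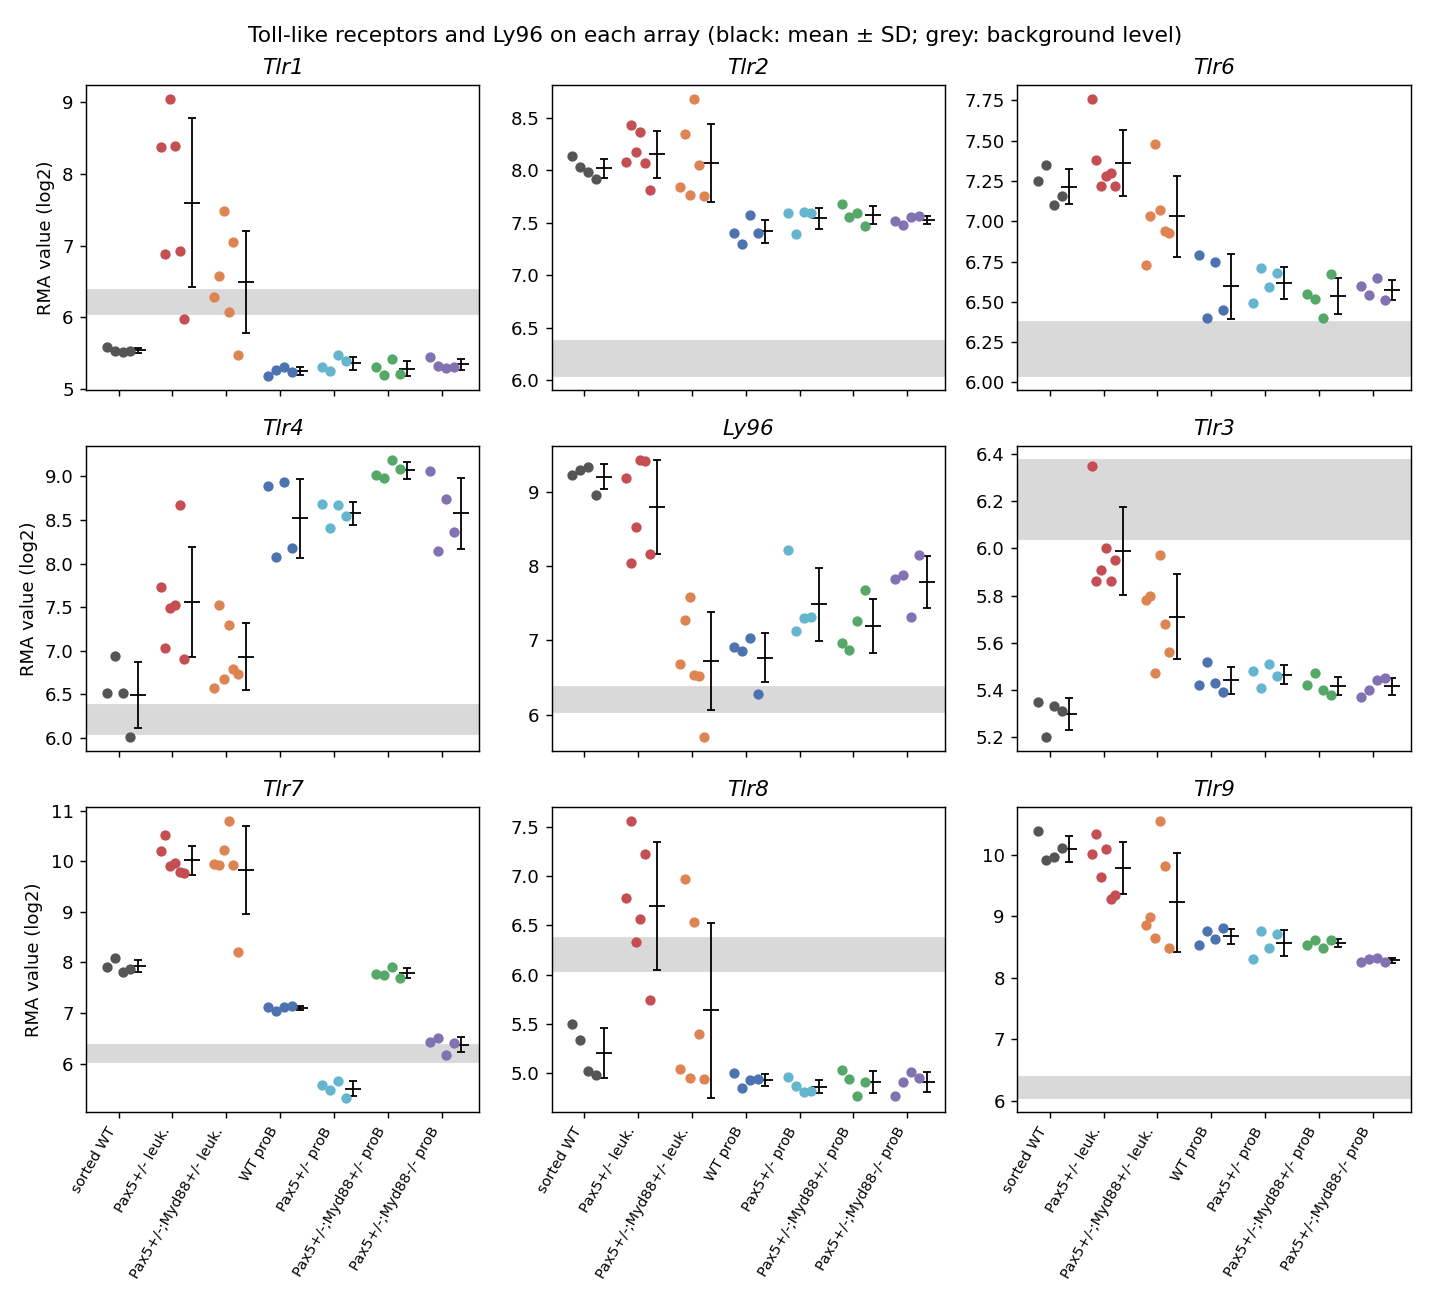
RMA values (log2) of the 9 measured genes on each of the 32 arrays, 1 point an array and 1 colour a group, with the mean ± SD in black and the span of the background levels (6.04 to 6.38) in grey. Tlr7 was at 8.20 to 10.80 in the leukemias and at 5.32 to 5.65 in the Pax5+/- cultures, Tlr4 was highest in the cultures, and Ly96 was low in the Pax5+/-;Myd88+/- leukemias.

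The first question is which receptors differed between leukemic marrow and healthy precursors. Tlr7 was higher in both kinds of leukemia, Ly96 was lower in Pax5+/-;Myd88+/- leukemia than in both other groups, and Tlr1, Tlr4 and Tlr8 were higher in Pax5+/- leukemia. In Pax5+/- leukemia against sorted WT cells 5 of the 9 genes passed the test (limma, adjusted p under 0.05, adjusted over all probesets), where 24.5% of all probesets did. In Pax5+/-;Myd88+/- leukemia 3 of 9 passed against the sorted cells, a share close to the 30.9% of all probesets. Between the leukemias 4 of 9 passed, all lower with 1 lost Myd88 allele, where 34.4% of probesets passed in either direction and 16.3% were lower.

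Tlr7 was at 7.91, 8.09, 7.82 and 7.88 in the sorted WT samples. It ran from 9.77 over a median of 9.93 to 10.51 in the Pax5+/- leukemias, and from 8.20 over 9.94 to 10.80 in the Pax5+/-;Myd88+/- leukemias. All 12 leukemias lay above all 4 sorted samples, the nearest being Pax5+/-;Myd88+/- replicate 6 at 8.20. Tlr7 is X-linked, and by Xist the sorted samples differed in sex from 5 of the 6 Pax5+/- leukemias, at 5.44 to 5.74, and from 3 of the 6 Pax5+/-;Myd88+/- leukemias. The difference was 2.10 ± 0.34 (log2, SE; 4.27-fold, adjusted p = 0.000478) for Pax5+/- and 1.91 ± 0.34 (3.76-fold, adjusted p = 0.000511) for Pax5+/-;Myd88+/- leukemia. Tlr7 still passed with the mean of the macrophage markers as a term in the fit (1.39 and 1.46), with leukemia replicates 2 and 4 of both genotypes left out (1.99 and 1.65) and with sorted WT replicates 3 and 4 alone (2.17 and 1.99). Between the leukemias the difference was -0.18 with a 95% interval of -0.84 to 0.47 and an adjusted p of 0.679, and without replicate 6 of Pax5+/-;Myd88+/- leukemia it was 0.14.

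Ly96 was at 9.23, 9.29, 9.33 and 8.96 in the sorted WT samples. It ran from 8.04 over 8.86 to 9.43 in the Pax5+/- leukemias and from 5.70 over 6.61 to 7.59 in the Pax5+/-;Myd88+/- leukemias, so that the latter did not overlap either of the other groups. Pax5+/-;Myd88+/- leukemias had 23.7% of the Pax5+/- level (difference -2.08 ± 0.31, adjusted p = 0.000107) and 17.9% of the sorted WT level (-2.49 ± 0.34, adjusted p = 4.66e-05). The difference between the leukemias stayed between -2.25 and -1.88 with each array left out and was -1.95 (adjusted p = 0.000323) with the macrophage marker mean as a term and -2.20 (adjusted p = 0.00105) without leukemia replicates 2 and 4. Pax5+/- leukemias and sorted cells differed by -0.41 (95% interval -1.14 to 0.33, adjusted p = 0.411).

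Tlr4, whose product needs MD-2, was at 6.52, 6.94, 6.51 and 6.01 in the sorted WT samples, at 6.91 to 8.67 (median 7.51) in the Pax5+/- leukemias and at 6.57 to 7.52 (median 6.76) in the Pax5+/-;Myd88+/- leukemias. All 3 ranges overlapped. It was 2.09-fold higher in Pax5+/- leukemia than in the sorted cells (1.06 ± 0.30, adjusted p = 0.0169), a call that was lost without sorted WT replicate 4 (0.90, adjusted p = 0.0696) and with the macrophage marker mean as a term (0.55, adjusted p = 0.305). Against Pax5+/- leukemia the Pax5+/-;Myd88+/- samples differed by -0.63 (95% interval -1.19 to -0.06, adjusted p = 0.0796), and by -1.01 (adjusted p = 0.0304) with replicates 2 and 4 of both genotypes left out. Cd14, which hands lipopolysaccharide to MD-2 and Tlr4, was above background in 2 of 6 leukemias of each genotype and in no sorted sample.

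The lipoprotein receptors parted ways. Tlr1 was flat in the sorted WT samples, at 5.58, 5.53, 5.51 and 5.53, below background on every array. It spread from 5.98 over 7.66 to 9.05 in the Pax5+/- leukemias and from 5.47 over 6.43 to 7.48 in the Pax5+/-;Myd88+/- leukemias. Replicates 1, 3 and 4 of Pax5+/- leukemia stood at 8.38 to 9.05, apart from the other 3 at 5.98 to 6.93. Against the sorted cells Tlr1 was at least 2.61-fold higher in Pax5+/- leukemia (fitted difference 2.06 ± 0.51, adjusted p = 0.00875), the bound being taken against the background level of the sorted arrays. That call was lost at an adjusted p of 0.0672 with the macrophage marker mean as a term, at nearly the same size (1.96), and at 0.0669 with sorted WT replicates 3 and 4 alone (2.08). For Pax5+/-;Myd88+/- leukemia the adjusted p was 0.182.

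Tlr2, the shared partner, was at 7.92 to 8.14 in the sorted samples, at 7.81 to 8.43 in the Pax5+/- leukemias and at 7.75 to 8.68 in the Pax5+/-;Myd88+/- leukemias. It passed in none of the 3 leukemia comparisons, with differences between -0.08 and 0.14. Tlr6 was at 7.10 to 7.35, at 7.22 to 7.76 and at 6.73 to 7.48 in the same order. It was lower in Pax5+/-;Myd88+/- than in Pax5+/- leukemia, at 79.6% of its level (-0.33 ± 0.11, adjusted p = 0.0368), with ranges that overlapped, and the call was lost when any of 8 arrays was left out and when only the 2 groups were fitted (adjusted p = 0.0668).

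Of the endosomal receptors, Tlr8, which lies beside Tlr7 on chromosome X, was at 5.50, 5.34, 5.02 and 4.98 in the sorted WT samples. It ran from 5.74 over 6.67 to 7.56 in the Pax5+/- leukemias and from 4.94 over 5.22 to 6.97 in the Pax5+/-;Myd88+/- leukemias. In the latter, replicates 2 and 4 (6.97 and 6.53) were high and the other 4 at 5.40 or less. The same replicates 2 and 4 had the highest macrophage marker means of their group (9.02 and 9.50, the others 6.84 to 7.88), and over the 16 arrays the deviations of Tlr8 from its group means followed those of the marker mean (r = 0.84, a description over arrays that share their groups). Tlr8 was at least 1.39-fold higher in Pax5+/- leukemia than in sorted cells (fitted difference 1.49 ± 0.42, adjusted p = 0.017), and with the marker mean as a term the difference was 0.41 at an adjusted p of 0.426. It was lower in Pax5+/-;Myd88+/- than in Pax5+/- leukemia (-1.06 ± 0.37, adjusted p = 0.0384), but as only 2 of the 6 Pax5+/-;Myd88+/- arrays exceeded background, no fold is given. Leaving out any of 8 single arrays ended the latter call. It was kept with the marker term (-0.67) and without replicates 2 and 4 of both genotypes (-1.44, adjusted p = 0.0022). With sorted WT replicates 3 and 4 alone neither Tlr8 call passed (adjusted p = 0.0623 and 0.0571). Replicates 2 and 4 of Pax5+/-;Myd88+/- leukemia were also high in Xist, as was replicate 6, where Tlr8 was low. Xist was above background in all 4 sorted samples, in 1 of 6 Pax5+/- and in 3 of 6 Pax5+/-;Myd88+/- leukemias. Both Tlr8 calls thus compare groups of unlike sex make-up, and the part of sex was not tested.

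The macrophage and monocyte list holds 13 measured genes, whose mean was 7.09 to 7.37 in sorted WT samples, 8.03 to 8.89 in Pax5+/- leukemias, 6.84 to 9.50 in Pax5+/-;Myd88+/- leukemias and 6.63 to 6.91 in the cultures. Of these genes 5 were higher in Pax5+/- leukemia than in sorted cells, among them the complement genes C1qa, C1qb and C1qc, and 3 were higher and 1 lower in Pax5+/-;Myd88+/- leukemia. Within groups, the deviations of Tlr2 (r = 0.85), Tlr9 (0.68), Tlr7 (0.66), Tlr3 (0.66) and Tlr4 (0.56) also ran with the list mean over the 16 arrays, those of Ly96 less (0.33) and those of Tlr1 hardly (0.07). With the dendritic cell markers (9 genes) the deviations of Tlr9 ran more closely (0.84), those of Tlr7 about as closely (0.63) and those of Tlr2 less closely (0.69). Against the B-cell precursor list ran those of Tlr2 (-0.79), Tlr9 (-0.65) and Tlr8 (-0.55), and the rest lay between -0.40 and 0.23. Those of Tlr8 also ran with the stromal (0.57), granulocyte (0.54) and platelet (0.54) lists, so these links were not particular to 1 cell type. Other lists differed as well: in Pax5+/- leukemia against sorted cells all 4 platelet markers (median difference 3.03) and 8 of 12 stromal markers (1.29) were higher and 6 of 7 T and NK cell markers (-2.27) lower, and in Pax5+/-;Myd88+/- leukemia 1 of 4 (1.17), 5 of 12 (1.03) and 6 of 7 (-1.43). How much of any receptor signal in the leukemias came from such cells was not tested.

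Tlr9 was at 10.39, 9.91, 9.96 and 10.10 in the sorted WT samples, at 9.28 to 10.33 (median 9.82) in the Pax5+/- leukemias and at 8.48 to 10.55 (median 8.92) in the Pax5+/-;Myd88+/- leukemias. The ranges of all 3 groups overlapped. It passed in no leukemia comparison: the differences from sorted cells were -0.31 (adjusted p = 0.544) and -0.87 (adjusted p = 0.0691), and the one between the leukemias -0.56 (95% interval -1.22 to 0.10). With all 32 arrays in 1 fit, the -0.87 passed at an adjusted p of 0.00897, and without leukemia replicates 2 and 4 it was -1.14 (adjusted p = 0.00643). Tlr3 was near background throughout, at 5.20 to 5.35 in sorted cells, 5.86 to 6.35 in Pax5+/- and 5.47 to 5.97 in Pax5+/-;Myd88+/- leukemias. It passed in all 3 comparisons (adjusted p = 0.000225 and 0.00616 against sorted cells and 0.0295 between the leukemias), but with 1 of these 16 arrays above background its differences have no measured size.

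**Figure D2:**
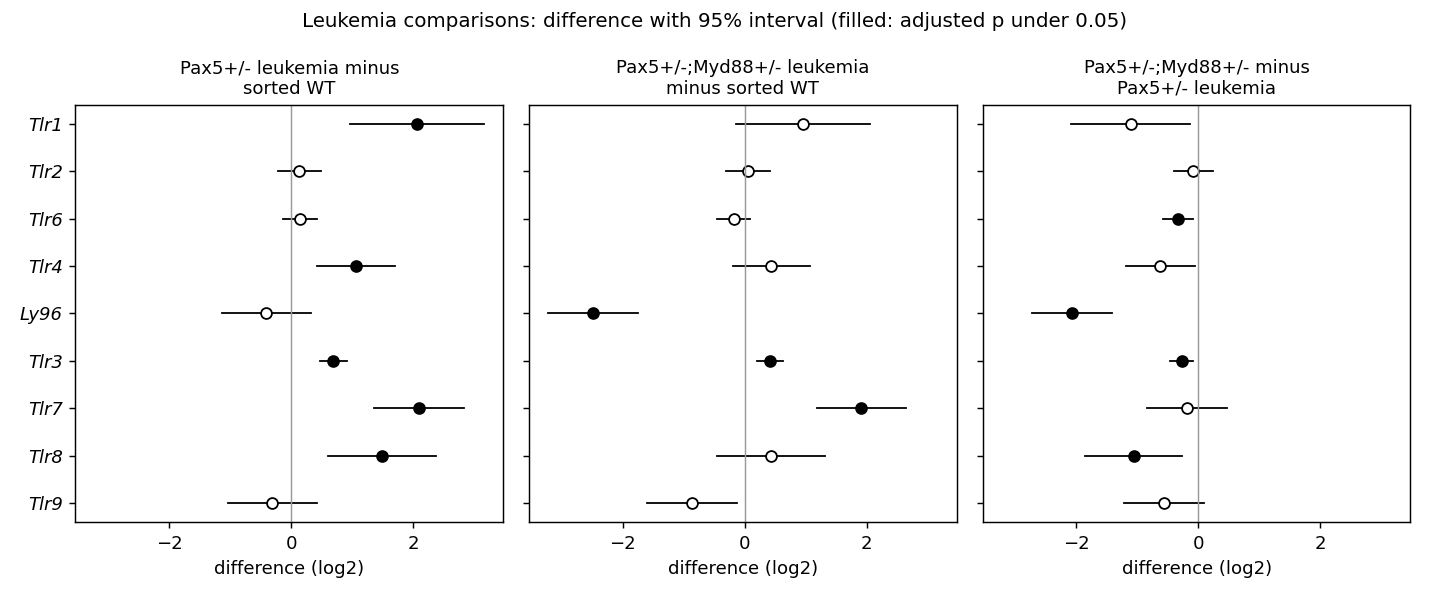
Differences (log2) of the 9 genes in the 3 leukemia comparisons, with points at the estimate, bars for the 95% interval and filled points for an adjusted p under 0.05. Tlr7 lay near 2 in both comparisons with sorted cells, and Ly96 at -2.49 and -2.08 where Pax5+/-;Myd88+/- leukemia was involved.

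The second question is whether the receptors differed with genotype in healthy proB cells. Here Tlr7 was the gene that moved, and in each direction: it was lower in Pax5+/- than in WT cultures and higher in Pax5+/-;Myd88+/- cultures than in either. In Pax5+/- against WT cultures Tlr7 was the 1 gene of 9 that passed (7.06% of all probesets did). It was also the 1 of 9 in Pax5+/-;Myd88+/- against Pax5+/- (4.3% of probesets) and against WT cultures (6.06%). Pax5+/-;Myd88-/- cultures had Tlr7 and Tlr9 passing against Pax5+/- (2 of 9, 11.5% of probesets) and against Pax5+/-;Myd88+/- cultures (2 of 9, 10.4%), and Tlr7, Tlr9 and Ly96 against WT (3 of 9, 15.7%). These comparisons share samples, and their counts are not independent of each other.

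Tlr7 was at 7.11, 7.04, 7.12 and 7.14 in the WT cultures. It was at 5.58, 5.47, 5.65 and 5.32 in the Pax5+/- cultures, each below the background of its array. In the Pax5+/-;Myd88+/- cultures it was at 7.78, 7.75, 7.92 and 7.70, and in the Pax5+/-;Myd88-/- cultures at 6.42, 6.50, 6.17 and 6.41. No culture of any genotype overlapped another, and the order was Pax5+/-, Pax5+/-;Myd88-/-, WT and Pax5+/-;Myd88+/- from low to high, with all 6 steps between genotypes passing.

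Pax5+/- cultures were at least 1.83-fold below WT cultures for Tlr7 (fitted difference -1.60 ± 0.08, adjusted p = 9.42e-10). Pax5+/-;Myd88+/- cultures were at least 2.94-fold above Pax5+/- cultures (2.28 ± 0.08, adjusted p = 1.31e-11) and 1.61-fold above WT (0.69 ± 0.08, adjusted p = 1.61e-05). Pax5+/-;Myd88-/- cultures were at 37.6% of the Pax5+/-;Myd88+/- level (-1.41 ± 0.08, adjusted p = 6.05e-09), at 60.4% of the WT level (-0.73 ± 0.08, adjusted p = 8.14e-06) and at least 1.10-fold above Pax5+/- cultures (0.87 ± 0.08, adjusted p = 1.53e-06). These errors come from the cultures alone. When the leukemias shared the estimate of the spread, the 0.69, the -0.73 and the 0.87 did not pass (adjusted p = 0.391, 0.133 and 0.0783), while the 3 larger differences did.

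Tlr7 lies on chromosome X, and Xist separated the same cultures by sex. The WT and Pax5+/- cultures, between which Tlr7 differed by -1.60, were both without Xist signal (5.32 to 6.11). The Pax5+/-;Myd88+/- and Pax5+/-;Myd88-/- cultures, between which it differed by -1.41, were both high in Xist (12.29 to 12.52). Comparisons across these pairs set cultures of different sex against each other. Among the 6 Pax5+/-;Myd88+/- leukemias, those with Xist at 12.49 or more (replicates 2, 4 and 6) had Tlr7 at 9.93, 10.80 and 8.20, and those at 6.04 or less had 9.94, 10.23 and 9.92.

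**Figure D3:**
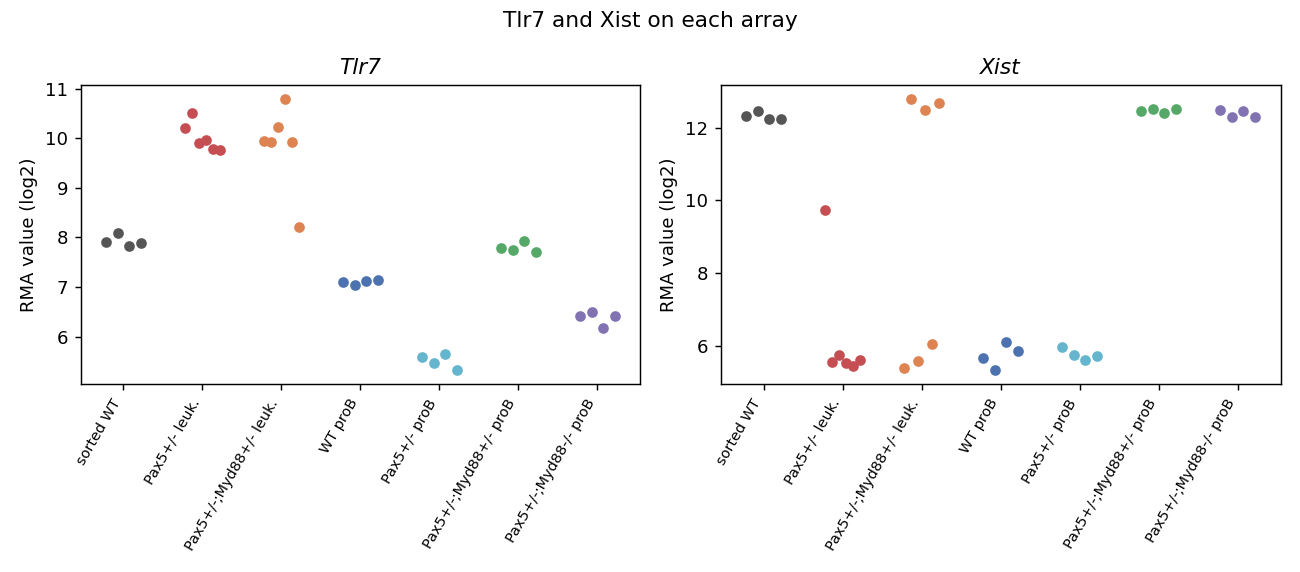
RMA values (log2) of Tlr7 and of Xist on each array, by group. WT and Pax5+/- cultures share a low Xist level and differ in Tlr7, as Pax5+/-;Myd88+/- and Pax5+/-;Myd88-/- cultures share a high one and differ in Tlr7.

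**Figure D4:**
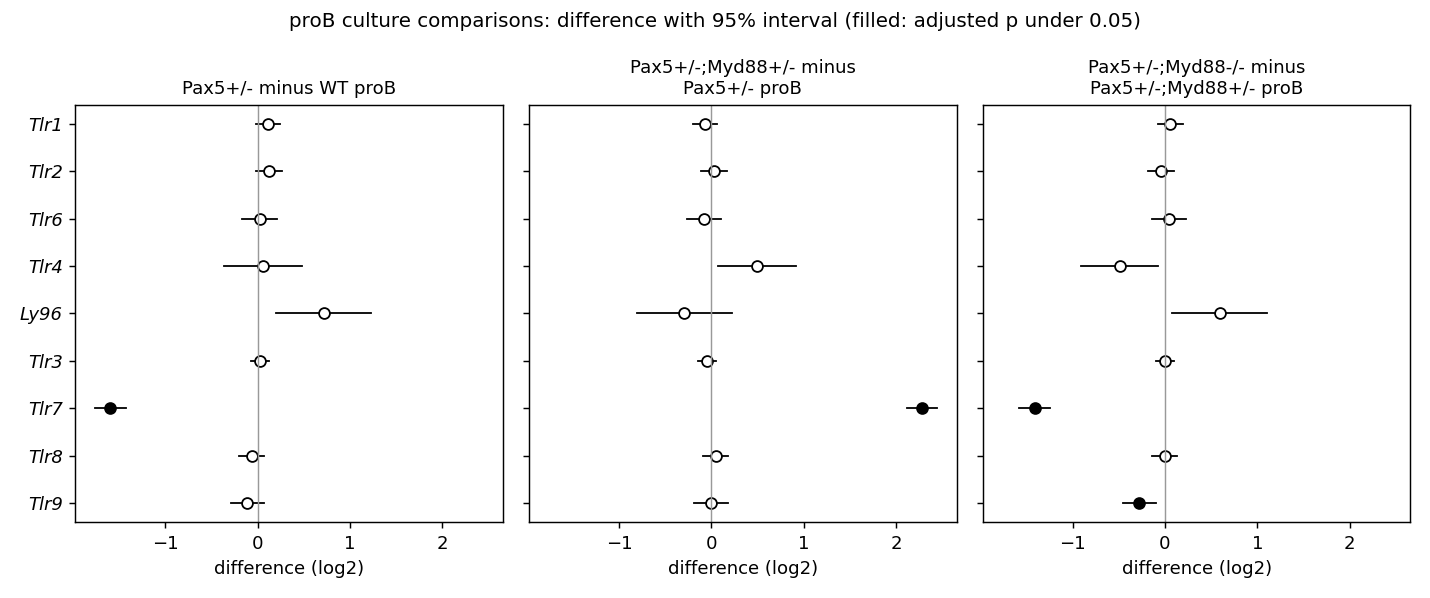
Differences (log2) of the 9 genes in 3 comparisons of proB cultures, with points at the estimate, bars for the 95% interval and filled points for an adjusted p under 0.05. Tlr7 lay at -1.60, 2.28 and -1.41 and the others between -0.49 and 0.72.

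Tlr9 was the gene with a small difference in Pax5+/-;Myd88-/- cultures. WT cultures had 8.53, 8.75, 8.62 and 8.80, and Pax5+/- cultures 8.31, 8.75, 8.48 and 8.71. Pax5+/-;Myd88+/- cultures had 8.53, 8.61, 8.48 and 8.61, and Pax5+/-;Myd88-/- cultures 8.25, 8.30, 8.32 and 8.25. The last group lay below all WT and all Pax5+/-;Myd88+/- cultures and overlapped Pax5+/- through 1 sample at 8.31. It was at 76.0% of the WT level (-0.40 ± 0.09, adjusted p = 0.00494), 82.2% of the Pax5+/- level (-0.28 ± 0.09, adjusted p = 0.0434) and 82.5% of the Pax5+/-;Myd88+/- level (-0.28 ± 0.09, adjusted p = 0.0494). Calls against the Pax5+/- and the Pax5+/-;Myd88+/- cultures were lost without any of 9 and any of 10 arrays, respectively. Tlr9 lies on chromosome 9, 13.1 Mb from Myd88, and the part of that linkage was not tested.

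The cultures also differed in stromal markers, which mark the feeder layer (12 measured genes such as the collagens Col1a1 and Col1a2). In each genotype the list mean was higher in replicates 1 and 3 than in replicates 2 and 4: WT cultures had 8.17 and 8.17 against 7.53 and 7.53, Pax5+/- cultures 8.17 and 8.26 against 7.05 and 7.12, Pax5+/-;Myd88+/- cultures 7.85 and 7.80 against 7.21 and 7.19, and Pax5+/-;Myd88-/- cultures 7.35 and 7.39 against 7.14 and 7.09. The sorted WT samples had 6.53 to 6.64. Over the 16 cultures the deviations of Tlr9 from its group means ran against those of the list (r = -0.88), and those of Tlr2 (0.65), Tlr4 (0.57) and Tlr7 (0.51) ran with them. With the list mean as a term (chosen after the data were seen, as were the macrophage term and every subset of replicates), Tlr9 in Pax5+/-;Myd88-/- cultures still passed, at -0.55, -0.39 and -0.35 against WT, Pax5+/- and Pax5+/-;Myd88+/-. With replicates 1 and 3 alone it did not (-0.29, -0.11 and -0.22), and with replicates 2 and 4 alone it did (-0.50, -0.46 and -0.34). The deviations of Tlr4 ran more closely with the B-cell precursor (0.78) and macrophage (0.74) lists than with the stromal list. Those of Tlr6 also ran with these 2 lists (0.77 and 0.76).

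Tlr4 differed between these pairs of replicates in some genotypes. It was at 8.89, 8.07, 8.93 and 8.18 in replicates 1 to 4 of the WT cultures and at 9.06, 8.14, 8.74 and 8.36 in those of Pax5+/-;Myd88-/- cultures. It was at 8.68, 8.41, 8.67 and 8.54 in Pax5+/- and at 9.01, 8.98, 9.19 and 9.09 in Pax5+/-;Myd88+/- cultures, so that the last group lay above all WT and all Pax5+/- cultures. The fit over all cultures did not pass these differences (0.55 ± 0.20 against WT, adjusted p = 0.142, and 0.49 ± 0.20 against Pax5+/-, adjusted p = 0.286). In replicates 2 and 4 alone they passed at 0.91 (adjusted p = 0.000161) and 0.56 (adjusted p = 0.00986), and in replicates 1 and 3 alone they were 0.19 (adjusted p = 0.496) and 0.43 (adjusted p = 0.0750). With the replicate number as a block in the fit, the difference from WT cultures passed and that from Pax5+/- cultures did not.

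For Ly96 the WT cultures stood at 6.91, 6.86, 7.03 and 6.28 and the Pax5+/- cultures at 8.21, 7.13, 7.30 and 7.31. The Pax5+/-;Myd88+/- cultures stood at 6.97, 6.87, 7.26 and 7.68 and the Pax5+/-;Myd88-/- cultures at 7.82, 7.88, 7.31 and 8.15. The WT cultures lay below all Pax5+/- and all Pax5+/-;Myd88-/- cultures. The latter difference passed (1.02 ± 0.24, 2.03-fold, adjusted p = 0.00899) and the former did not (0.72 ± 0.24, adjusted p = 0.101). With replicates 1 and 3 alone the Pax5+/-;Myd88-/- difference was 0.60 at an adjusted p of 0.188.

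The other genes stayed within narrow ranges in the 16 cultures. Tlr2 was at 7.30 to 7.68 and Tlr6 at 6.40 to 6.79, and no difference in either passed. Tlr1 (5.18 to 5.47), Tlr3 (5.37 to 5.52) and Tlr8 (4.77 to 5.03) were below background in all of them.

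**Figure D5:**
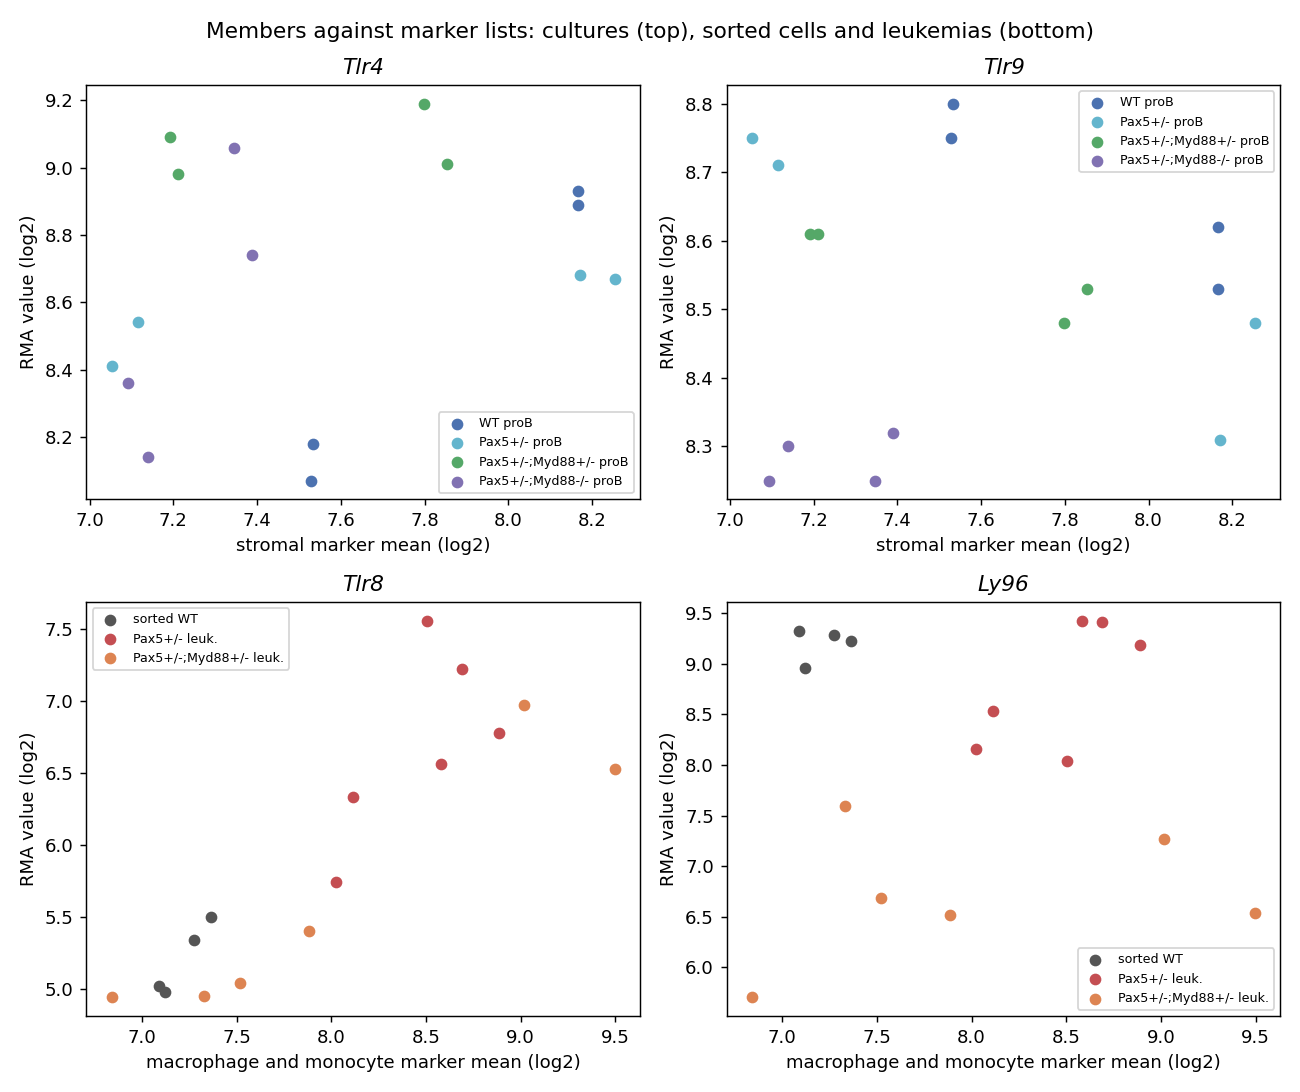
RMA values (log2) of Tlr4 and Tlr9 against the mean of the stromal markers in the 16 cultures (top) and of Tlr8 and Ly96 against the mean of the macrophage and monocyte markers in the 16 sorted and leukemic samples (bottom), coloured by group. Tlr9 was lower where the stromal mean was high in 3 of the 4 genotypes, Tlr8 ran with the macrophage mean, and Ly96 was lower in all Pax5+/-;Myd88+/- leukemias, whose macrophage means lay below or above those of Pax5+/- leukemias (8.03 to 8.89).

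Next, the fit over all arrays set the WT cultures against the sorted WT cells, which differ in sorting, culture and sex. In it 6 of the 9 genes passed, where 42.5% of all probesets did. Tlr4 was 4.06-fold higher in culture (2.02 ± 0.28, adjusted p = 1.19e-06), while Ly96 was at 18.5% of the sorted level (-2.43 ± 0.33, adjusted p = 8.98e-07), so that the receptor and its partner moved in opposite directions. Tlr9 was at 37.5% (-1.42 ± 0.29, adjusted p = 0.00019), and Tlr7 (-0.82), Tlr6 (-0.62) and Tlr2 (-0.60) were lower as well. For all 6 the groups did not overlap, and how many of all probesets did the same was not counted. Markers of other cells moved with them: 6 of 9 dendritic (median difference -1.15), 6 of 7 T and NK cell (-2.33), 4 of 6 mature B-cell (-1.72) and 6 of 12 granulocyte markers (-2.31) were lower in culture and 7 of 12 stromal markers (1.34) higher, and their part in the receptor differences was not tested. Tlr7's call was lost without sorted WT replicate 2 and when the near-identical WT cultures 1 and 3, and 2 and 4, were averaged (adjusted p = 0.0854), as well as with sorted WT replicates 3 and 4 alone (-0.75, adjusted p = 0.121). Ly86, which encodes MD-1, the relative of MD-2 that pairs with Cd180, differed most among the accessory proteins: it was at 11.14 to 11.36 in the sorted cells and at 5.14 to 5.60 in all 16 cultures, below background, whereas Cd180 itself was at 10.93 to 11.85 in the same cultures.

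Leukemias were also set against the cultures of their own genotype. By Xist 1 of the 6 Pax5+/- leukemias stood at 9.72, where all their cultures were low, at 5.61 to 5.97. The mean difference in Xist was 0.50 (adjusted p = 0.736). Of the 6 Pax5+/-;Myd88+/- leukemias 3 were low in Xist where all their cultures were high. In Pax5+/- all 9 genes passed, where 53.4% of probesets did. Tlr7 was at least 13.8-fold higher (4.52 ± 0.26, adjusted p = 1.02e-13), Tlr9 2.33-fold (1.22 ± 0.26) and Ly96 2.48-fold (1.31 ± 0.30), while Tlr4 was at 49.4% (-1.02 ± 0.26, adjusted p = 0.00169). In Pax5+/-;Myd88+/- 6 of 9 passed, where 14.6% of probesets did. Tlr7 was 4.14-fold higher (2.05 ± 0.26, adjusted p = 2.3e-06) and Tlr4 at 22.7% (-2.14 ± 0.26, adjusted p = 1.06e-06). Tlr2 (0.50) and Tlr6 (0.49) were higher in these leukemias, and Tlr1 at least 1.16-fold, its cultures being below background on every array. Tlr3 passed as well, with both groups below background. Ly96 (-0.48, adjusted p = 0.304), Tlr9 (0.66, adjusted p = 0.0864) and Tlr8 (0.73, adjusted p = 0.116) did not pass. These results rest on arrays of both experiments, whose joint normalization is not stated.

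Whether loss of 1 Myd88 allele went with a different change in leukemia than in proB culture was tested as an interaction over all arrays. It passed for 3 of the 9 genes, where 21.8% of probesets did. For Tlr7 the difference of differences was -2.47 ± 0.37 (adjusted p = 1.34e-05), from -0.18 in leukemia and 2.28 in culture. For Ly96 it was -1.79 ± 0.43 (adjusted p = 0.00318), from -2.08 and -0.29, and for Tlr4 -1.12 ± 0.36 (adjusted p = 0.0268), from -0.63 and 0.49. Tlr4's call was lost without Pax5+/- culture replicate 2 or Pax5+/-;Myd88+/- culture replicate 3. Tlr7 was below background in all 4 Pax5+/- cultures, so its 2.28 and -2.47 are fitted values and no measured sizes. Its change in culture was at least 2.94-fold.

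The genes through which these receptors signal were taken from a list of 66 measured genes in 6 roles. In Pax5+/-;Myd88+/- leukemia against sorted WT cells 6 of the 66 were higher and 25 lower, and in Pax5+/- leukemia 9 were higher and 18 lower. These are 47% and 40.9% of the list, beside 30.9% and 24.5% of all probesets. Inhibitors of the pathway were lower in 6 of 9 and 4 of 9 cases and higher in none. They included Tnfaip3, which encodes a deubiquitinase (-1.74 ± 0.24 and -1.67 ± 0.24), and the NF-kB inhibitor gene Nfkbie (-1.74 ± 0.20 and -1.37 ± 0.20). Among kinases and ligases, Traf6, the ligase downstream of Myd88, was lower by 1.36 ± 0.16 and 1.11 ± 0.16 on the log2 scale. Target genes moved both ways, with the chemokines Ccl3 (-3.18 and -2.48) and Ccl5 (-3.15 and -2.71) and the receptor Cd40 (-1.98 and -1.28) lower and Tnf higher (1.26 and 1.72). Of the adaptors, Pik3ap1 was lower in both (-1.45 and -1.72) and Ticam2, the adaptor that links Tlr4 to Ticam1, higher (1.13 and 0.89). Myd88 was lower in Pax5+/-;Myd88+/- leukemia (-1.25).

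Between the leukemias 5 of the 66 were higher and 13 lower in Pax5+/-;Myd88+/- samples (27.3%, beside 34.4% of all probesets). Those over 2-fold were Cd36, a lipid co-receptor (-2.40 ± 0.73, above background in 3 of 6 Pax5+/-;Myd88+/- arrays), Tlr13, a receptor of bacterial ribosomal RNA (-1.58 ± 0.59, above it in 2 of 6), Nfkbib (-1.47 ± 0.12), Myd88 itself (-1.30 ± 0.16), Socs1 (-1.06 ± 0.23) and Lbp (-1.02 ± 0.38). Tlr13 was at 8.24 and 8.09 in the same Pax5+/-;Myd88+/- replicates 2 and 4 in which Tlr8 was high and at 5.44 to 6.03 in the other 4. Unc93b1, the chaperone that brings Tlr3, Tlr7, Tlr8 and Tlr9 to the endosome, was above background in all 7 groups, at 10.17 to 11.80.

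In the cultures the pathway genes that passed were 7, 8 and 9 of 66 (10.6%, 12.1% and 13.6%, beside 7.06%, 4.3% and 11.5% of all probesets) in Pax5+/- against WT, Pax5+/-;Myd88+/- against Pax5+/- and Pax5+/-;Myd88-/- against Pax5+/- cultures, and 13 of 66, all lower, in Pax5+/-;Myd88-/- against Pax5+/-;Myd88+/- cultures (19.7%, beside 10.4%). Those 13 include Myd88 (-1.33 ± 0.10), 4 transcription factors and 5 targets. Tirap, the adaptor that bridges Tlr2 and Tlr4 to Myd88, was higher in Pax5+/- than WT cultures (1.18 ± 0.11, adjusted p = 1.5e-06) and lower in Pax5+/-;Myd88+/- (-1.35 ± 0.11, adjusted p = 3.6e-07) and Pax5+/-;Myd88-/- (-1.63 ± 0.11, adjusted p = 3.3e-08) than in Pax5+/- cultures. It exceeded background in 3 of 4 Pax5+/-;Myd88+/- and 1 of 4 Pax5+/-;Myd88-/- arrays, so these sizes lie near the limit of detection. Ccl3 was higher than WT in Pax5+/- (2.84 ± 0.22), Pax5+/-;Myd88+/- (4.52 ± 0.22) and Pax5+/-;Myd88-/- cultures (3.82 ± 0.22), with 3 of 4 WT arrays above background. Irak3, an inhibitory kinase of the family, was higher in Pax5+/-;Myd88+/- than in WT cultures (1.15 ± 0.07).

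In WT cultures against sorted WT cells 7 of the 66 were higher and 30 lower (56.1%, beside 42.5% of all probesets). Besides Ly86 (at least 32.6-fold lower), the lower genes included Irf8 (-2.58 ± 0.51) and Irf5 (-1.29 ± 0.18), interferon regulatory factors downstream of the endosomal receptors, and Unc93b1 (-1.09 ± 0.20). Tnf was higher in culture (2.62 ± 0.38).

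For each detected receptor gene the 3 genes of highest Pearson correlation over the 32 arrays were found, as a description over arrays that share group, culture and experiment. Tlr9 ran most closely with Irf8 (r = 0.95, and 0.89 after group means were removed), then with Sik1 and Gltp (both 0.94). Ly96 ran with Atp6v1f (0.94), Ubl5 (0.93) and Rab11a (0.93). Tlr2 ran with Ppm1m (0.94), Dock4 (0.93) and Ctsh (0.93), Tlr4 with Atxn1 (0.92), Polk (0.92) and Clgn (0.89), and Tlr6 with Gramd3 (0.92), Gsap (0.91) and Sla (0.91). Tlr7 ran with Tmem176b (0.92, and 0.57 without group means), Ampd3 (0.90) and Mcu (0.90).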

How the data were processed

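The authors made gene-level RMA values with the Transcriptome Analysis Console, per the methods on genome mm10. RMA corrects background, normalizes quantiles and summarizes probes. The deposited unit is log2, rounded, with array medians of 6.88 to 7.03. Whether all 32 arrays were normalized together is not stated, so differences across the experiments are the least certain. Of 28944 probesets 21789 name 1 gene, 1621 several and 5534 none. No dim probeset was filtered. The brightest probeset over all arrays represented a gene, and coordinates are RefSeq's on GRCm38.p6.

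limma 3.58.1 in R 4.3.3 fitted each experiment's groups together, and all 32 arrays for comparisons across experiments, with empirical Bayes and Benjamini-Hochberg adjustment over all probesets. "Passed" means an adjusted p under 0.05. The number of arrays limits the precision.

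Named genes are all members, the pathway genes that passed at over 2-fold (at most 4 a role), the 3 genes most alike and Myd88, Pax5 and Xist. The members and lists were chosen with earlier results of these data known. The alternatives were call rules, other samples in the fit, normalizations, a filter on dim probesets, a variance trend, the replicate number as a block, left-out arrays and, added after seeing the data, marker means as terms and subsets of replicates. Replicate numbers were not taken to pair samples. Figures used matplotlib 3.10.9.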

Additional observations from a re-analysis of the deposited data

Results flagged for a closer look

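Of 63 sets of 4 to 6 arrays (9 genes in 7 groups), 5 held an array far from the others by Dixon's test, where chance gives about 1 in 20. Tlr7 was at 8.20 in Pax5+/-;Myd88+/- leukemia replicate 6, against 9.92 to 10.80 in the other 5, and this array also had the lowest Tlr9, Tlr1 and Ly96 values of its group. Without it, Tlr7 still passed in Pax5+/-;Myd88+/- leukemia against sorted WT cells (2.24) and against its cultures (2.38). In Pax5+/- leukemia, replicate 1 stood above the others for Tlr6 (7.76 against 7.22 to 7.38) and for Tlr3 (6.35 against 5.86 to 6.00). In Pax5+/- cultures, Ly96 was at 8.21 in replicate 1 and 7.13 to 7.31 in the others, and Tlr2 at 7.39 in replicate 2 and 7.59 to 7.60 in the others.

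The effect of 1 lost Myd88 allele differed between leukemia and proB culture for 3 genes by the interaction test: Tlr7 (-2.47), Ly96 (-1.79) and Tlr4 (-1.12 on the log2 scale). The size for Tlr7 is a fitted one, since its Pax5+/- cultures were all below background. Sex by Xist differs between the 2 culture groups in this test, and the macrophage and stromal marker means vary in it; their part was not tested.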

How the results depend on the processing

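Over all alternatives no called difference of the 9 genes turned its direction (46 calls), and 20 kept their side of the threshold in all. Counts of genes that passed by limma moved by over 1.5 times as follows; where no cause is clear from the setting, it was not tested. With a required change of over 2-fold they were 2 (from 4) between the leukemias, 0 (from 2) for Pax5+/-;Myd88-/- and 0 (from 1) for Pax5+/-;Myd88+/- against, in turn, Pax5+/- and WT cultures, 1 (from 2) between the Myd88-/- and Myd88+/- cultures, 1 (from 3) for Pax5+/-;Myd88-/- against WT, 3 (from 6) for WT cultures against sorted cells and 3 (from 6) for Pax5+/-;Myd88+/- leukemia against its cultures. The study's thresholds (unadjusted p under 0.05 and over 2-fold) gave the same 0, 0, 1, 1, 3 and 3. With all 32 arrays in 1 fit they were 5 (from 3) for Pax5+/-;Myd88+/- leukemia against sorted cells and 0, 0, 1 and 0 for the culture comparisons in the order given. In the 3 settings with 0, 2, 2 and 1 of 9 genes had an unadjusted p under 0.05 for Pax5+/-;Myd88-/- against Pax5+/-, 3, 3 and 1 for Pax5+/-;Myd88+/- against WT, and 2 for Pax5+/-;Myd88-/- against WT over all arrays. With only the 2 groups compared, counts were 1 between the leukemias, 2 for Pax5+/-;Myd88+/- and 1 for Pax5+/-;Myd88-/- against Pax5+/- cultures, and 3 for Pax5+/-;Myd88+/- leukemia against its cultures. The filter on a mean of at least 6, which removed Tlr1, Tlr3 and Tlr8 from testing, gave 2 for Pax5+/- leukemia against sorted cells and 2 between the leukemias, and the macrophage marker mean as a term gave 2 and 2. Sorted WT replicates 3 and 4 alone gave 3 and 2. Median centring and limma-trend each gave 1 and 1 for Pax5+/-;Myd88-/- against Pax5+/- and Pax5+/-;Myd88+/- cultures. With culture replicates 1 and 3 alone these were 1 and 1, and 1 against WT. With replicates 2 and 4 alone, counts were 3 for Pax5+/- against WT, 2 for Pax5+/-;Myd88+/- against Pax5+/- and 2 against WT. The stromal marker mean as a term gave 3 for the latter. Leaving out leukemia replicates 2 and 4 of both genotypes moved no count by over 1.5 times. The marker terms and replicate subsets were chosen after seeing the data.

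Replicate numbers were not taken to pair the samples. In each culture genotype replicates 1 and 3 had higher stromal means than replicates 2 and 4. The correlations below do not test such a split. Same-numbered deviations correlated at -0.15 to 0.52 in the leukemia experiment and -0.27 to 0.41 in the cultures (above 0.1 in 1 of 14 and 12 of 24 pairs), and no pair of groups had every sample correlating best with its own number. With the number as a replicate block, 8 gene calls changed. Tlr4 passed in Pax5+/-;Myd88+/- against WT cultures (adjusted p = 0.0273, 2 genes from 1) and in Pax5+/-;Myd88-/- against Pax5+/-;Myd88+/- cultures (0.0345). Tlr1 passed in Pax5+/-;Myd88+/- leukemia against sorted cells (0.0337) and against Pax5+/- leukemia (0.0293), where Tlr6 no longer did (0.0769). Tlr8 and Tlr9 passed in Pax5+/-;Myd88+/- leukemia against its cultures (0.0263 and 0.0259), and Tlr8 in the interaction (0.0337).

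With each array left out in turn, counts ran from 3 to 4 for Pax5+/-;Myd88+/- and 3 to 5 for Pax5+/- leukemia against sorted cells (3 without sorted WT replicate 4, where Tlr4 and Tlr8 were lost), 1 (without Pax5+/-;Myd88+/- replicate 5) to 6 (without Pax5+/- replicate 6) between the leukemias, 1 to 2 for Pax5+/-;Myd88-/- against Pax5+/- and against Pax5+/-;Myd88+/- cultures, 5 to 6 for WT cultures against sorted cells, 5 to 7 for Pax5+/-;Myd88+/- leukemia against its cultures and 2 to 5 for the interaction (2 without Pax5+/- culture replicate 2, 5 without Pax5+/-;Myd88+/- leukemia replicate 4). Detected genes ran from 6 to 8. The remaining counts did not move. Tlr3 between the leukemias was lost without any of 5 arrays and Tlr1 in Pax5+/-;Myd88+/- leukemia against its cultures without any of 6. Averaging all probesets of a gene was not run, since each gene has 1. Calls of Tlr3 and Tlr8 rest on signals near background. In the Tlr1 calls of the main fits the lower group was below background on every array, while Pax5+/- leukemias reached 9.05.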
